A study of Mus musculus with 6 samples.

Results

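The interleukin-6 (IL-6) family receptors and the Stat3 pathway behind them were described in sorted cells of the adult mouse brain. The 10 genes were chosen by name, as receptor chains (Osmr, Lifr, Il6st, Cntfr and Il6ra), a ligand (Cntf), kinases (Jak1 and Jak2), the transcription factor Stat3 and its feedback inhibitor Socs3. They are 10 of 32564 genes and 55 of 98294 transcripts. The rule that names them uses no measured value, but they were chosen with earlier results of these data known. Their shares beside those of all genes are therefore a description only. RNA was sequenced from 6 libraries of cells sorted by flow cytometry from the subependymal zone, the stem cell niche beside the lateral ventricles, and the labels call the cells qNSCs. One group of 3 libraries came from mice injected into the ventricles with an antagomir against miR-204, that is, a chemically stabilised antisense oligonucleotide to this microRNA. The other 3 libraries came from mice given artificial cerebrospinal fluid (vehicle). In both groups the mice were gfap:GFP transgenic animals of strain C56BL/6J, 3 months old, in which the promoter of Gfap, a gene of astrocytes and adult neural stem cells, drives green fluorescent protein, and cells were taken 3 days after the injection. Because no control oligonucleotide appears among the labels, the response to an injected oligonucleotide as such and the block of miR-204 cannot be told apart. Levels of miR-204 itself were not analysed here. The labels do not say whether replicates came from separate animals or pools, and the p-values therefore reflect the spread among 6 libraries only, which may be technical.

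IL-6 family cytokines share the signalling chain gp130, encoded by Il6st. IL-6 binds Il6ra before it engages gp130, leukemia inhibitory factor brings Lifr to gp130, ciliary neurotrophic factor adds the non-signalling Cntfr to that pair, and mouse oncostatin M pairs Osmr with gp130. The bound chains activate the kinases Jak1, Jak2 and Tyk2, which phosphorylate Stat3, and Stat3 induces Socs3, which in turn blocks the kinases. In the subependymal zone ciliary neurotrophic factor and gp130 are known for a role in keeping neural stem cells, and in astrocytes Stat3 drives Gfap.

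The antagomir's target and the letters that match its seed in the pathway are shown because they are the sequence link between the treatment and these genes. The mature miR-204-5p and miR-211-5p, from RefSeq on build GRCm38.p6, are given with bases 2 to 8, the seed, in capitals, and they share that seed.
mmu-miR-204-5p: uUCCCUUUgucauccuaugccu
mmu-miR-211-5p: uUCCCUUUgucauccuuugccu
A match to the seed is AAAGGGA (7mer-m8), AAAGGGAA (8mer) or AAGGGAA (7mer-A1). It was searched on the transcript strand of the annotated 3′ UTR of each gene's most abundant protein-coding transcript. Of the 10 genes, 2 held an 8mer or 7mer-m8 match and 3 held any match, against 13.5% and 20.4% of the 13813 genes searched. These shares were not adjusted for length. The median 3′ UTR searched was 880 bases, and those with a match had 1837 (Il6ra), 6320 (Lifr) and 1232 (Jak2) bases. Only Cntfr and Cntf, with 654 and 238 bases, lay below that median among the members. The sites follow with 30 bases of GENCODE M21 sequence on build GRCm38 each and the match in capitals.
Il6ra: aaactgctgtgAAAGGGAAatttattaaaa
Lifr: aacttaaacatAAAGGGAgataacttccct
Jak2: agacagatgggAAGGGAAgggtgtggggca
The Il6ra site is an 8mer within its 30 printed bases, chr3:89869339-89869368 on the minus strand, and starts at base 1804 of a 3′ UTR of 1837 bases. The Lifr site is a 7mer-m8 within its 30 printed bases, chr15:7192256-7192285 on the plus strand, and starts at base 1098 of 6320. The Jak2 site is a 7mer-A1 within its 30 printed bases, chr19:29312859-29312888 on the plus strand, and starts at base 1022 of 1232. No match to these letters was in the searched 3′ UTRs of Osmr, Il6st, Cntfr, Cntf, Jak1, Stat3 or Socs3. Another protein-coding transcript of Il6st did hold one, which made 3 genes with an 8mer or 7mer-m8 in any protein-coding transcript. A match is a stretch of letters and not a measured site.

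The libraries held 14866453 to 19694409 estimated counts, and 3 counts, the limit that a count of 0 allows, came to 0.152 to 0.202 CPM, the count scaled to a common library size. With edgeR's quasi-likelihood test, 0 of 15012 genes passed an adjusted p of 0.05, and 616 had an unadjusted p under 0.05. DESeq2 called 1 of 14977 genes (0.00668%), Frmpd4, which is outside the pathway. Markers of astrocytes and stem cells were all detected, 9 of 9, and summed to 5143 to 7508 CPM in antagomir libraries and 7099 to 8287 CPM in vehicle libraries. Oligodendrocyte markers, 6 of 6, summed to 12610 to 17620 CPM in antagomir libraries and 7647 to 16060 CPM in vehicle libraries, so the identity given by the label was not established. Microglia markers, 8 of 8, summed to 159.5, 229.9 and 351.3 CPM in the antagomir libraries, against 2142, 338.5 and 203.1 CPM in the vehicle libraries. Vehicle replicate 1 thus stood apart in these markers, and values without it are given for Stat3 and for several gene lists. Over all genes tested, antagomir replicate 1 was the lowest library in 25.1% and the highest in 23.5%. Vehicle replicate 1 was the lowest in 15.8% and the highest in 16.7%. Markers of other cell types were also present. Ependymal markers summed to 1079 to 1836 CPM in antagomir libraries and 1583 to 2055 CPM in vehicle libraries, and neuroblast markers to 701 to 1473 CPM in antagomir libraries and 443.9 to 993.1 CPM in vehicle libraries. Blood markers, mostly the hemoglobin genes, summed to 15.03 to 228.9 CPM in antagomir libraries and 114.1 to 786.1 CPM in vehicle libraries, with Cd3e and Ly6g (T cells and neutrophils) at 0 in all. Pericyte and fibroblast markers, mostly Pdgfrb, summed to 87.3 to 145.5 CPM in antagomir libraries and 123.4 to 132.2 CPM in vehicle libraries, with Vtn, Dcn and Lum at 0 in all. Choroid plexus markers, mostly Clic6 and Folr1, summed to 60.7 to 137.5 CPM in antagomir libraries and 88.4 to 114.1 CPM in vehicle libraries. Ttr was too low to be tested, at 1.28, 0.335 and 0.057 CPM in antagomir libraries and 0.394, 0 and 0 in vehicle libraries. Endothelial markers summed to 5.596 to 11.7 CPM in antagomir libraries and 7.26 to 21.2 CPM in vehicle libraries, with Tek, Cdh5 and Cldn5 too low to be tested.

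All 10 genes were expressed highly enough to be tested, and none passed the adjusted threshold. Fold changes (antagomir over vehicle) were negative for 6 and positive for 4, with a median log2 fold change of -0.054 against -0.0062 over all genes tested. In 2 genes, Osmr and Cntfr, the groups did not overlap and the antagomir libraries were the lower ones. Groups did not overlap in 10.5% of all genes tested, 5.45% with the antagomir libraries lower and 5.07% with them higher. Osmr and Cntfr were also the members with an unadjusted p under 0.05, which 4.1% of all genes had, 1.93% lower and 2.18% higher.

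**Figure D1:**
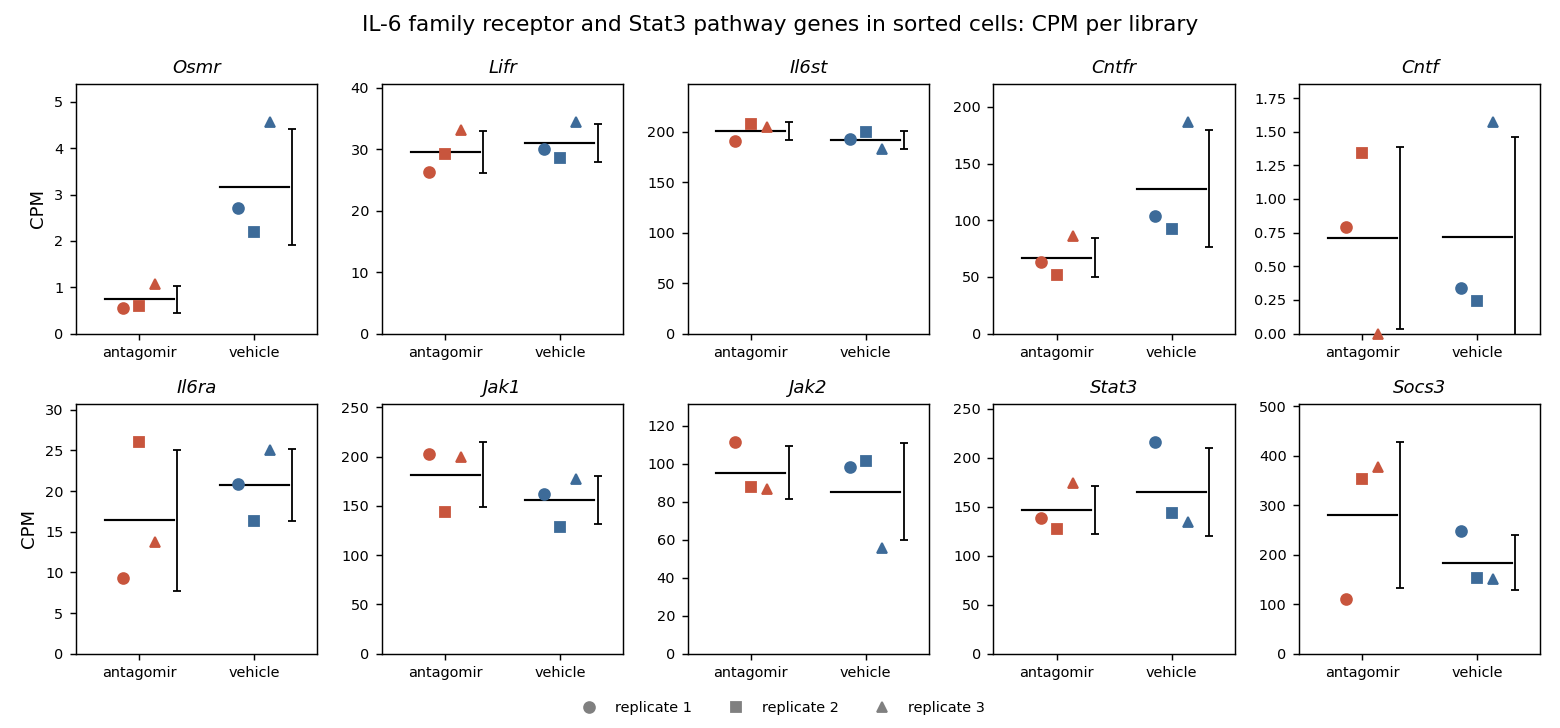
CPM of each of the 10 genes in the 3 antagomir libraries (red) and the 3 vehicle libraries (blue), with each panel on its own axis from 0. Marker shapes give the replicate, lines the group means and bars the SD (n = 3 each), and only Osmr and Cntfr have antagomir points all below the vehicle points.

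Osmr, the oncostatin M receptor chain (ENSMUSG00000022146.12, GRCm38 chr15:6813577-6874969, minus strand), had the lowest mean level per length of the 10 and the largest fold change. It had 0.548, 0.602 and 1.08 CPM in the antagomir libraries, against 2.70, 2.202 and 4.57 CPM in the vehicle libraries. Every antagomir value lay below every vehicle value, and the highest of each group was replicate 3. The log2 fold change was -2.07 ± 0.66 (SE, n = 3 each), with edgeR's unadjusted p = 0.0131 and adjusted p = 0.949, rank 105 of 15012 genes by p. Without vehicle replicate 3 it was -1.70 with an unadjusted p of 0.0622 in edgeR's fit. The exact two-sided permutation test of log2 CPM gave p = 0.1, the smallest that 3 against 3 libraries allow. These values rest on few reads, 37 estimated counts over the antagomir group and 174 over the vehicle group. The depth-scaled ratio was 0.234, with a 95% exact interval of 0.159 to 0.334 that covers counting error only. In bulk samples, fewer cells of a type and less RNA per cell cannot be told apart.

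The separation of the Osmr values was not present in its protein-coding transcripts alone, a count made after the data were seen. Coding Osmr transcripts had 9, 3 and 0 estimated counts in the antagomir libraries, against 41, 31 and 0 in the vehicle libraries, so vehicle replicate 3 was listed at 0 and the groups overlapped. Their level was 0.583, 0.220 and 0 CPM with the antagomir and 2.49, 2.04 and 0 CPM with vehicle, too low to be tested. The retained-intron transcript Osmr-205 took the reads in replicate 3 instead, with 0, 6.07 and 18.6 estimated counts in the antagomir libraries, against 1.07, 2.09 and 88.6 in the vehicle libraries. Osmr-205 is 5487 bases long, near the 5491 bases of the main coding transcript Osmr-201. How kallisto divides so few reads between transcripts of such similar length was not tested.

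Cntfr, the ciliary neurotrophic factor receptor that is anchored to the membrane and does not signal itself (ENSMUSG00000028444.17, chr4:41657498-41697089, minus strand), was the other gene without overlap. It had 63.3, 51.9 and 86.2 CPM in the antagomir libraries, against 103.7, 92.6 and 186.9 CPM in the vehicle libraries. The highest antagomir value lay just below the lowest vehicle value, and replicate 3 was again the highest of each group. Cntfr had a log2 fold change of -0.93 ± 0.30 (SE, n = 3 each), with edgeR's unadjusted p = 0.0148 and adjusted p = 0.949. Without vehicle replicate 3 it was -0.54 and without antagomir replicate 2 it was -0.77, with unadjusted p of 0.0593 and 0.0583 in edgeR's fits. The exact permutation test again gave its smallest p of 0.1. In coding transcripts alone the groups of Cntfr still did not overlap, with 64.5, 51.4 and 87.2 CPM in antagomir libraries and 108.8, 94.1 and 197.2 CPM in vehicle libraries.

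Cntf, the ligand of that receptor, was close to the limit of detection. It had 0.791, 1.34 and 0 CPM in the antagomir libraries, against 0.338, 0.245 and 1.57 CPM in the vehicle libraries, and the groups overlapped. Summed over libraries, Cntf had 33 estimated counts after the antagomir and 41 after vehicle. The depth-scaled ratio was 0.884, with a 95% exact interval of 0.542 to 1.43 that covers counting error only. Cntf (ENSMUSG00000079415.2, chr19:12763660-12765632, minus strand) shares 847 of its 1073 exonic bases with Zfp91 on the same strand, so its reads cannot be cleanly separated from those of Zfp91. Zfp91, named because of that overlap, had 54.8, 46.4 and 55.5 CPM in antagomir libraries and 67.3, 62.1 and 50.8 CPM in vehicle libraries.

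The shared chain Il6st (ENSMUSG00000021756.12, chr13:112464070-112510086, plus strand) had the smallest SE of the 10 fold changes. It had 190.5, 207.4 and 204.7 CPM in the antagomir libraries, against 193.1, 199.9 and 182.8 CPM in the vehicle libraries, and the groups overlapped. The log2 fold change was 0.07 ± 0.12 (SE, n = 3 each; edgeR adjusted p = 0.962), with an approximate 95% interval of -0.18 to 0.31. This interval uses a normal approximation, which makes it too narrow for so few libraries. In TPM, which scales for transcript length, Il6st was higher in every antagomir library, with 69.5, 78.3 and 80.0 TPM against 65.7, 59.0 and 55.5 TPM in vehicle libraries. A separation in this direction in TPM was seen in 7.05% of all genes tested, the opposite one in 3.7% and either in 10.8%. Il6st-205, a transcript of 322 bases, held 9.70, 16.6 and 18.1 of these TPM in antagomir libraries and 11.5, 0 and 3.23 in vehicle libraries, from at most 31.0 estimated counts in a library.

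Lifr, the leukemia inhibitory factor receptor (ENSMUSG00000054263.12, chr15:7090614-7197489, plus strand), lies near Osmr on chromosome 15. It had 26.3, 29.3 and 33.1 CPM in the antagomir libraries, against 30.1, 28.5 and 34.5 CPM in the vehicle libraries. The groups overlapped almost fully, with a log2 fold change of -0.07 ± 0.19 (SE, n = 3 each; edgeR adjusted p = 0.974). Its approximate 95% interval was -0.44 to 0.30, by the same normal approximation as for Il6st and likewise too narrow. Il6ra, the chain specific to IL-6 (ENSMUSG00000027947.11, chr3:89864059-89913196, minus strand), varied more between libraries. It had 9.37, 26.0 and 13.8 CPM in the antagomir libraries, against 20.9, 16.3 and 25.03 CPM in the vehicle libraries. Antagomir replicate 2 was the highest of all 6 libraries and antagomir replicate 1 the lowest, so the antagomir range enclosed the vehicle range. The log2 fold change of Il6ra was -0.34 ± 0.38 (SE, n = 3 each; edgeR adjusted p = 0.952), and it was -0.84 without antagomir replicate 2 and -0.07 without antagomir replicate 1. The genes with a seed match, Il6ra, Lifr and Jak2, thus had log2 fold changes of -0.34, -0.07 and 0.16, and in none of them did the groups separate.

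**Figure D2:**
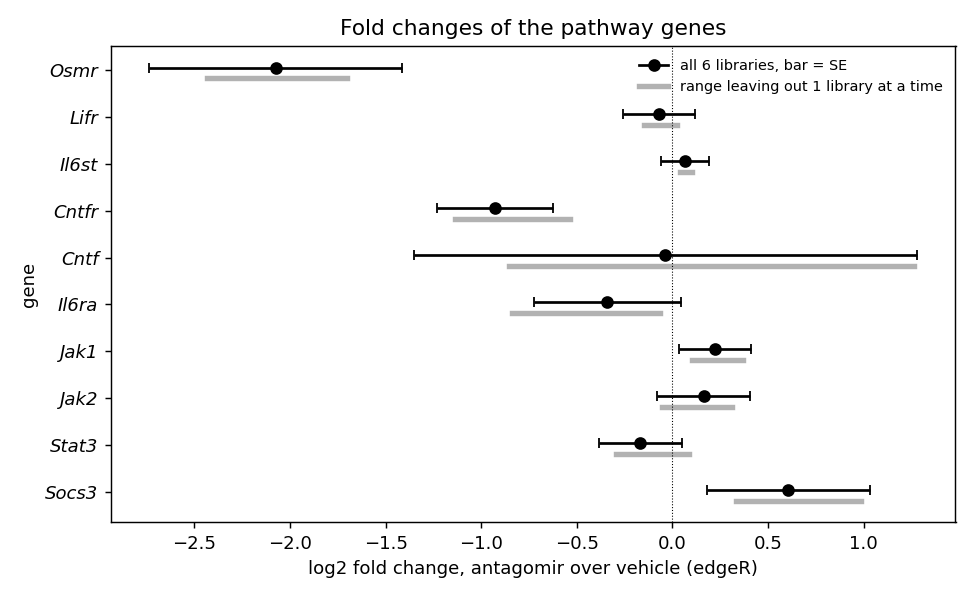
Log2 fold change of each of the 10 genes, antagomir over vehicle, from edgeR (points, bars are the SE, n = 3 each), with the range obtained by leaving out 1 library at a time in grey. Osmr and Cntfr stay below 0 in every such fit, and the ranges of Lifr, Cntf, Jak2 and Stat3 cross 0.

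Levels per length spanned a wide range, in an order by mean TPM over the 6 libraries that was the same at its top and bottom in both groups. Socs3 led with 160.3 TPM, followed by Cntfr with 96.6, Stat3 with 92.8, Jak1 with 84.8 and Il6st with 68.0 TPM. Neighbours among these leading genes overlapped over the 6 libraries, and Cntfr ranked 5th in antagomir libraries and 2nd in vehicle libraries. Jak2 followed with 30.5 TPM, below Il6st in every library. Il6ra averaged 8.33 TPM and Lifr 6.26 TPM, all below Jak2, and the ranges of these 2 overlapped. Cntf averaged 1.27 TPM and Osmr 0.737 TPM, the lowest means of the pathway, and the ranges of Cntf and Osmr overlapped. Of the 9 neighbouring pairs in this order, 3 did not overlap (Il6st above Jak2, Jak2 above Il6ra, and Lifr above Cntf), and CPM per kilobase also gave 3.

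**Figure D3:**
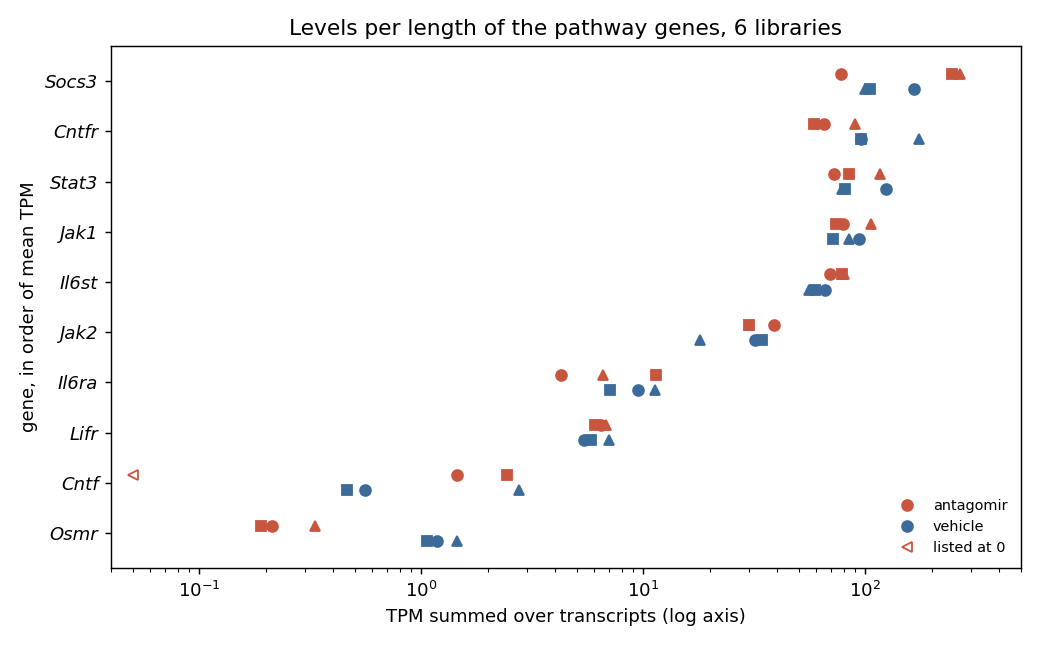
TPM per gene (log axis) in the antagomir libraries (red, upper row of each gene) and the vehicle libraries (blue, lower row), in order of the mean over 6 libraries, with marker shapes as replicates. Socs3 is at the top with 160.3 TPM on average, Osmr at the bottom with 0.737 TPM, and the open triangle is Cntf listed at 0 in antagomir replicate 3.

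Ratios of receptor chains within a library are free of the scaling between libraries. Lifr stood far above Osmr in TPM, by 30.5, 31.8 and 20.5 times in antagomir libraries and by 4.58, 5.50 and 4.85 times in vehicle libraries, without overlap between the groups. Cntfr stood above Lifr by 10.03, 9.74 and 13.2 times in antagomir libraries and by 17.8, 16.4 and 24.9 times in vehicle libraries, also without overlap. Both separations follow from the values of Osmr and Cntfr given above and are no separate evidence. Il6st exceeded Lifr by 10.7, 13.0 and 11.7 times in antagomir libraries and by 12.2, 10.2 and 7.91 times in vehicle libraries, with overlap. Il6ra was a small fraction of Il6st, 0.061, 0.145 and 0.082 in antagomir libraries and 0.144, 0.120 and 0.203 in vehicle libraries.

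Among the kinases, Jak1 (ENSMUSG00000028530.14, chr4:101152367-101265282, minus strand), a kinase bound to gp130, had 202.4, 143.8 and 199.5 CPM in the antagomir libraries. It had 162.2, 128.9 and 177.1 CPM in the vehicle libraries, and the groups overlapped, with replicate 2 the lowest of each. Jak1 had a log2 fold change of 0.22 ± 0.19 (SE, n = 3 each; edgeR adjusted p = 0.949). Jak2 (ENSMUSG00000024789.13, chr19:29251828-29313080, plus strand) had 111.4, 87.7 and 86.7 CPM in the antagomir libraries, against 98.1, 101.5 and 55.7 CPM in the vehicle libraries. Vehicle replicate 3 was the low one, and without it the log2 fold change of Jak2 was -0.05 in place of 0.16 ± 0.24 (SE, n = 3 each; edgeR adjusted p = 0.955). Jak1 exceeded Jak2 in TPM in every library, by 2.06, 2.45 and 3.53 times with the antagomir and by 2.94, 2.08 and 4.70 times with vehicle.

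Stat3, the transcription factor of the pathway (ENSMUSG00000004040.16, chr11:100885098-100939540, minus strand), had 138.8, 127.4 and 173.9 CPM in the antagomir libraries. It had 216.1, 143.8 and 134.4 CPM in the vehicle libraries, and the groups overlapped, with vehicle replicate 1 the highest. Stat3 had a log2 fold change of -0.17 ± 0.22 (SE, n = 3 each; edgeR adjusted p = 0.952). Without vehicle replicate 1, the library with 2142 CPM of microglia markers, it was 0.08, and the part of those cells in the Stat3 value was not tested. Stat3 shares 72 of 9527 exonic bases with Stat5a on the other strand, and the library kit does not mark strand.

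Socs3, the feedback inhibitor that Stat3 induces (ENSMUSG00000053113.3, chr11:117966079-117970047, minus strand), had the widest spread of the abundant members. It had 110.0, 353.0 and 377.5 CPM in the antagomir libraries, against 248.5, 153.4 and 150.4 CPM in the vehicle libraries. Antagomir replicates 2 and 3 were the highest of the 6 libraries and antagomir replicate 1 the lowest, so the groups overlapped. The log2 fold change was 0.61 ± 0.43 (SE, n = 3 each; edgeR adjusted p = 0.949), and the exact permutation test gave p = 0.4. Without antagomir replicate 1 the log2 fold change was 0.99, with an unadjusted p of 0.00346 in edgeR's fit, and the adjusted p of edgeR was still 0.9997. Relative to Stat3 in TPM, Socs3 stood at 1.07, 2.94 and 2.29 times in antagomir libraries and at 1.33, 1.30 and 1.27 times in vehicle libraries, so the vehicle libraries lay close together and the antagomir libraries on both sides of them.

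The Socs3 promoter is shown because it was the only member promoter with the palindrome that STAT dimers bind, TTCNNNGAA, which reads the same on both strands as a pattern. The motif was found in 1 of 16 promoters of the 10 genes, against 8.3% of 32851 RefSeq promoters of 300 bases. The RefSeq sequence on build GRCm38.p6, chr11:117969317-117969616 on the minus strand, runs from 250 bases before the start to 50 bases after it and has the motif in capitals.
Socs3: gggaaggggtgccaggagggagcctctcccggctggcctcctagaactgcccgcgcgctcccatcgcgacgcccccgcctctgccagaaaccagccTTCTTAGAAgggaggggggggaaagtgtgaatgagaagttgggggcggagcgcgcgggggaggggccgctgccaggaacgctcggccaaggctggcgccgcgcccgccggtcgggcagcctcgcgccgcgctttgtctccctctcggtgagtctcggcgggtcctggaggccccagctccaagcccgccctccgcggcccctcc
No match in the windows of the other members says only that these letters are absent there.

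Transcript shares within a gene are a readout that the rule naming the genes does not use. They were tested for 12 main transcripts of Lifr, Il6st, Cntfr, Jak1 and Stat3, each with at least 10% of its gene's TPM. The smallest exact permutation p was 0.1, for 1 share. That was Il6st-203, a coding transcript of 8678 bases with 17.4, 16.7 and 17.1% of Il6st TPM in antagomir libraries and 18.6, 21.3 and 22.3% in vehicle libraries. As a share of estimated counts Il6st-203 overlapped between groups (exact permutation p = 0.2). Lifr-203, the main Lifr transcript, took 58.9, 77.5 and 80.0% in antagomir libraries and 90.2, 75.7 and 72.3% in vehicle libraries. Cntfr-203 took 69.1, 72.6 and 55.7% in antagomir libraries and 88.3, 50.6 and 74.9% in vehicle libraries, so the main Cntfr transcript stayed in the lead in every library. Jak1-201, the full-length coding transcript, took 89.6, 65.6 and 63.8% in antagomir libraries and 53.7, 58.8 and 66.4% in vehicle libraries, with antagomir replicate 1 apart from the rest. Its complement in TPM was mostly Jak1-204, a non-coding transcript of 589 bases. As a share of estimated counts Jak1-204 took only 0.614, 3.84 and 3.66% in antagomir libraries and 5.17, 4.28 and 3.52% in vehicle libraries. Stat3-203 led in Stat3 with 54.0, 38.4 and 38.9% in antagomir libraries and 46.0, 46.3 and 36.7% in vehicle libraries. Il6ra, Jak2 and Socs3 were carried by 1 transcript each, with 91.3% (Il6ra-201), 100% (Jak2-202) and 99.9% (Socs3-201) of their TPM on average.

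The other genes of the pathway were counted in lists, and in each of them 0 genes passed the adjusted threshold. Of 11 further ligands, 7 were expressed highly enough to be tested, 2 with positive and 5 with negative fold changes and a median log2 fold change of -0.24. Lif had 4.32, 2.08 and 1.65 CPM in antagomir libraries and 5.63, 2.94 and 3.00 CPM in vehicle libraries, and Clcf1, another ligand of Cntfr, had 0.365, 0.602 and 0.510 CPM against 0.788, 1.22 and 0.660 CPM in vehicle libraries. The values of Clcf1 did not overlap between the groups and those of Lif did. Clcf1 had few reads, with 6, 9 and 8.5 estimated counts in antagomir libraries and 14.5, 19.5 and 13 in vehicle libraries. Il6 had 0.061, 3.55 and 2.95 CPM in antagomir libraries and 1.91, 0.184 and 1.93 CPM in vehicle libraries, so 1 library of each group was near 0. Osm, the ligand of Osmr, was too low to be tested and was named after its values were seen, with 0, 0.402 and 0.227 CPM in antagomir libraries and 8.83, 0.061 and 0.051 CPM in vehicle libraries. Nearly all Osm reads came from vehicle replicate 1, the library with the highest microglia marker sum, and the part of those cells was not tested.

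Of 8 further receptor chains and receptor-shedding proteases, 6 were tested, 2 with positive and 4 with negative fold changes and a median of -0.11, or 0.03 without vehicle replicate 2. Il12rb1, a chain of the interleukin-12 receptor related to gp130, had 3.77, 4.48 and 6.24 CPM in antagomir libraries and 0.169, 1.22 and 2.08 CPM in vehicle libraries. Its groups did not overlap, at a log2 fold change of 2.05 ± 0.83 (SE, n = 3 each; edgeR adjusted p = 0.949). These values rest on few reads, with 62.1, 67.1 and 110 estimated counts in antagomir libraries and 3, 20 and 41.0 in vehicle libraries. Adam17, the protease that sheds Il6ra, had 51.8, 51.6 and 64.4 CPM in antagomir libraries and 71.4, 59.1 and 68.8 CPM in vehicle libraries, with overlap.

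Of the 8 other JAK and STAT genes, 7 were tested and all 7 had negative fold changes, with a median of -0.51, while 50.9% of all genes were negative. None of them had an unadjusted p under 0.05 or groups without overlap. Tyk2, the third kinase of these receptors, had 16.5, 33.4 and 24.2 CPM in antagomir libraries and 33.5, 31.1 and 29.9 CPM in vehicle libraries. In 5 of the 7 genes vehicle replicate 1 was the highest library, against 16.7% of all genes, and without it the median was -0.22 with 5 of 7 negative. Of 16 interferon-response genes listed, 14 were tested. Of these, 13 had negative fold changes, 9 of them with an unadjusted p under 0.05 in edgeR (1.93% of all genes tested were lower at that p), and their median was -1.90. Vehicle replicate 1 was the highest library in 13 of 14, and without it the median was -0.56 with 11 of 14 negative and 2 at an unadjusted p under 0.05. The part of the microglia in these lists was not tested. Herc6, a ubiquitin ligase that modifies proteins with ISG15 in the mouse, was the interferon gene with the smallest p, with 20.9, 26.1 and 23.0 CPM in antagomir libraries and 36.7, 45.4 and 50.6 CPM in vehicle libraries, and its highest library was vehicle replicate 3.

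The 18 further inhibitors of the pathway were split evenly, 9 with positive and 9 with negative fold changes and a median of -0.02. Ptprt, a receptor phosphatase that removes the phosphate of Stat3, had 32.97, 27.2 and 24.3 CPM in antagomir libraries and 39.3, 34.7 and 46.4 CPM in vehicle libraries. Its groups did not overlap, at a log2 fold change of -0.51 ± 0.20 (SE, n = 3 each; edgeR adjusted p = 0.949). Ptpn6, a phosphatase of blood and microglial cells, had 1.46, 5.29 and 3.91 CPM in antagomir libraries and 29.5, 6.12 and 2.49 CPM in vehicle libraries, with vehicle replicate 1 again far above the others. Socs7 had 11.98, 12.18 and 12.02 CPM in antagomir libraries and 18.9, 16.4 and 12.9 CPM in vehicle libraries, a narrow separation.

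**Figure D4:**
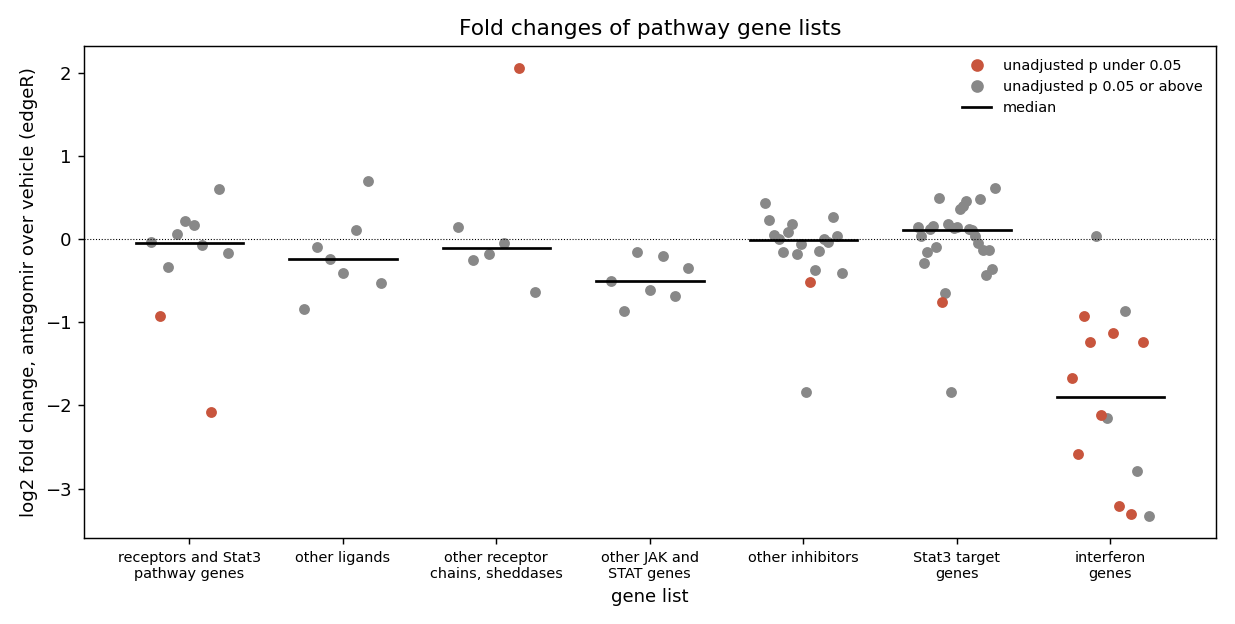
Log2 fold changes, antagomir over vehicle, of the tested genes in each list (points; red where edgeR's unadjusted p was under 0.05), with the median of each list as a line. The 10 receptor and Stat3 pathway genes have a median of -0.054, and the interferon genes lie lowest with a median of -1.90.

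Of 30 target genes of Stat3, 27 were tested, 16 with positive and 11 with negative fold changes and a median of 0.10. Directions within the list were mixed. Gbp2, a guanylate-binding protein that interferons also induce, had 23.4, 31.0 and 33.6 CPM in antagomir libraries and 57.5, 44.0 and 47.1 CPM in vehicle libraries. Among the 27 tested it was the only target with an unadjusted p under 0.05 in edgeR's fit of all 6 libraries. Such a p was held by 4.1% of all genes tested. Gbp2 had a log2 fold change of -0.75 ± 0.21 (SE, n = 3 each; edgeR adjusted p = 0.949). Pim3, a survival kinase, had 115.6, 154.8 and 198.3 CPM in antagomir libraries and 96.0, 130.6 and 108.8 CPM in vehicle libraries, with overlap. Vim, an intermediate filament of astrocytes and stem cells, had 228.9, 367.9 and 313.6 CPM in antagomir libraries and 435.7, 344.6 and 387.3 CPM in vehicle libraries. Gfap, its partner filament and the gene whose promoter drives the reporter, had 236.9, 179.9 and 294.2 CPM in antagomir libraries and 556.2, 365.7 and 189.2 CPM in vehicle libraries, also with overlap.

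The spread of Socs3 over the antagomir libraries was found again in other targets, which were picked for display after their values were seen. Zfp36, an mRNA decay factor, had 182.5, 769.1 and 800.0 CPM in antagomir libraries and 441.1, 316.5 and 392.0 CPM in vehicle libraries. Junb, an AP-1 subunit, had 472.1, 1043 and 1298 CPM in antagomir libraries and 802.9, 594.0 and 790.1 CPM in vehicle libraries. As in Socs3, antagomir replicate 1 was the lowest and replicates 2 and 3 the highest, and both genes are also immediate early genes that many stimuli induce. Irf1 had 17.9, 62.4 and 102.4 CPM in antagomir libraries and 79.8, 47.2 and 38.5 CPM in vehicle libraries. Over the list, 14 of the 27 targets were lowest in antagomir replicate 1 and 12 were highest in antagomir replicate 3, against 25.1% and 10.9% of all genes. Without antagomir replicate 1 the median was 0.21 with 20 of 28 positive, and without antagomir replicate 3 it was -0.17 with 19 of 27 negative. Without vehicle replicate 1 the median was 0.21 with 18 of 27 positive. Without vehicle replicate 2 or 3 it was -0.02 or -0.035, so the sign of the median depends on single libraries.

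**Figure D5:**
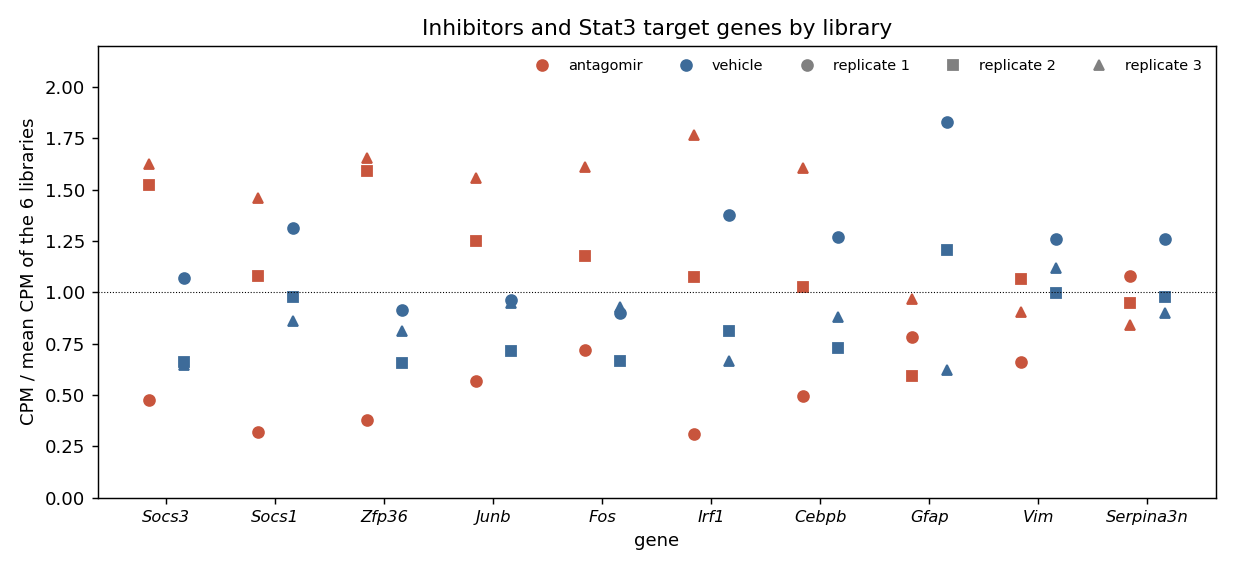
CPM of Socs3, Socs1 and 8 Stat3 target genes divided by the gene's mean over the 6 libraries, for antagomir (red, left) and vehicle (blue, right) libraries, with marker shapes as replicates and the mean at 1. In Socs3, Zfp36 and Junb antagomir replicate 1 is the lowest library and antagomir replicates 2 and 3 the highest, while Gfap and Vim are highest in vehicle replicate 1.

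The genes whose log2 CPM followed the members most closely over the 6 libraries were taken from 13966 genes as a description. The points share the libraries and their scaling, and with 6 libraries many genes reach a high correlation. For Osmr the closest were Plxdc1 (Pearson r = 0.998), Grina (0.994) and Bola3 (0.991), and 52 genes had r above 0.95. Plxdc1 had 2.25, 2.14 and 3.40 CPM in antagomir libraries and 7.09, 6.42 and 10.8 CPM in vehicle libraries, with the antagomir libraries lower and replicate 3 the highest of each group, as in Osmr. For Stat3 the closest were Tmem173 (r = 0.992), Cap1 (0.987) and Ccr6 (0.982), and 24 genes had r above 0.95. Tmem173 had 1.95, 0.937 and 4.48 CPM in antagomir libraries and 15.1, 1.71 and 1.47 CPM in vehicle libraries, with vehicle replicate 1 on top as in Stat3. For Socs3 the closest were Palld (r = 0.986), Stx2 (0.984) and Matn4 (0.982), with 13 genes above 0.95. Palld had 27.6, 46.1 and 45.6 CPM in antagomir libraries and 38.7, 28.9 and 29.4 CPM in vehicle libraries. Among the members, Osmr and Cntfr followed each other most closely (r = 0.937), Il6st and Socs3 had r = 0.731, and Lifr and Jak2 ran opposite (r = -0.849).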

How the data were processed

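The 6 libraries hold RNA from flow-sorted subependymal zone cells, 3 after the antagomir and 3 after vehicle. RNA was isolated with PicoPure, cDNA made with SMART-Seq v4, which does not mark strand, and libraries with MicroPlex, read as 100 bp paired ends, per the labels' protocols. kallisto, sleuth and mm10 are named in the submitters' processing notes; their versions are not given in the sources used here. Per the file headers, the deposited estimated counts per transcript carry no normalization. The deposited TPM values are those counts divided by effective length and scaled to a fixed total, per the file headers. Reads that fit several transcripts are shared out by kallisto's model, which makes transcript shares estimates. Groups came from the labels' treatment group, because the labels' treatment protocol names the antagomir for all 6.

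Of 99567 transcripts, 98294 had an identifier in GENCODE M21 (GRCm38). The 1273 without one, with 0.524 to 0.586% of the counts, were left out. Counts were summed per gene and rounded. Between the 15 pairs of libraries, chi-square per gene was 23.7 to 98.6, so no pair agreed within sampling noise. The test was edgeR 4.0.16 in R 4.3.3 (TMM, filterByExpr with a minimum count of 10, robust quasi-likelihood, group only) on 15012 genes, with Benjamini-Hochberg adjusted p below 0.05 as the threshold. The biological coefficient of variation was 36.2%. CPM uses TMM-scaled library sizes, and log2 CPM a prior count of 2. Alternatives were other scaling and filters, DESeq2 1.42.0, limma 3.58.1 on log2(TPM + pseudocount), a replicate block, and each library left out.

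The members and lists were chosen with earlier results of these data known. The genes named were the members, up to 4 tested genes per list with the smallest p, and the 3 genes most correlated with Osmr, Stat3 and Socs3. Pseudogenes and genes with Gm or Rik names were not named. Osm, Zfp91, Zfp36, Junb, Irf1, Gfap and the other drawn genes Socs1, Fos, Cebpb and Serpina3n fall outside it and were picked with their values known, as was Frmpd4. One gene that the rule took is not reported here.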

Additional observations from a re-analysis of the deposited data

How the results depend on the processing

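The count of genes past the adjusted threshold was 0 under every alternative except DESeq2, which called 1. The replicate block also called 0, with a smallest edgeR adjusted p of 0.21. It had 1284 genes at an unadjusted p under 0.05 in edgeR, against 616 without the block. Deviations from group means correlated at 0.195, 0.0749 and 0.0275 between same-number libraries, and at -0.186 to 0.14 between different-number libraries. Whether replicate numbers pair the libraries is not settled by these values or by the labels. With the replicate block the log2 fold change of Osmr was -2.07 and that of Cntfr -0.89 (edgeR adjusted p = 0.267, the smallest of any member under any alternative). Of 157 alternative fold changes of the 10 genes, 148 kept the direction and the side of the threshold and 9 reversed, in Lifr, Cntf, Jak2 and Stat3. Lifr was 0.078 and 0.090 on the log2(TPM + pseudocount) scale with pseudocounts of 1 and 0.1, and -0.15 to 0.023 leaving out 1 library at a time. With 1 library left out at a time, Cntf was -0.85 to 1.26 (0.11 with the replicate block), Jak2 -0.054 to 0.31 and Stat3 -0.30 to 0.084. Osmr was -2.44 to -1.70 and Cntfr -1.14 to -0.54 in the same fits, and Osmr was -0.84 on the log2(TPM + 1) scale. Of 84 alternative share differences 8 reversed. The Il6st-201 share differed by 2.28 points by counts against -6.30 by TPM. Leaving out 1 library, the share differences were -15.8 to 3.02 points for Cntfr-203, -8.24 to 6.62 for Cntfr-204, -4.33 to 3.46 for Stat3-203 and -5.45 to 3.84 for Stat3-201. The list medians without 1 library, added after the data were seen, were -0.42 to -0.079 for ligands, -0.13 to 0.034 for receptor chains, -0.69 to -0.22 for JAK and STAT genes, -0.048 to 0.038 for inhibitors, -0.17 to 0.21 for Stat3 targets and -2.56 to -0.56 for interferon genes. Coding transcripts alone, also added later, left Osmr below the filter, as did a mean count of 50, which dropped Cntf too. The cause of these shifts was not tested. Depth limits Osmr and Cntf, which had few estimated counts in every library.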
